A study of Mus musculus with 18 samples.

Results

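The genes described here are the subunits, activators, inhibitor and assembly chaperones of the proteasome, measured by RNA sequencing of mouse spinal cord microglia. Members were the protein-coding rows of the count table whose symbol starts with Psma, Psmb, Psmc, Psmd, Psme, Psmf or Psmg and whose counts summed to at least 180 over the 18 libraries. The rule found 43 of the 39017 genes in the table, from 50 protein-coding candidates. One of the 43, Psmc3ip, carries such a symbol but encodes a partner protein of meiotic recombination and is no proteasome gene, so the text counts the other 42 members and gives Psmc3ip once. All 43 passed the filter on low counts. The lowest total of a member was 2609 counts, and the highest total of a candidate under the minimum was 10 (Psme2b).

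Per the labels, all libraries came from spinal cord microglia of female mice labelled wild type that carry Tmem119-Cre and RiboTag, a Cre-dependent tag on a ribosomal protein. There were 3 groups of 6 libraries: healthy mice with control treatment (replicates 3, 4, 11, 12, 19 and 20), control-treated mice with EAE (1, 2, 9, 10, 17 and 18) and EAE mice treated with metformin (5, 6, 13, 14, 21 and 22). EAE, experimental autoimmune encephalomyelitis, is a mouse disease used to model multiple sclerosis, and metformin is an antidiabetic drug. The labels give no dose, time or age. Whether each replicate was a mouse of its own is not stated, so p-values reflect only the spread between libraries, which may be technical. They name the molecule as total RNA, and in such bulk libraries fewer cells of a type and less RNA per cell cannot be told apart.

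The proteasome is the large protease that degrades ubiquitin-tagged proteins in the cytosol and nucleus. Its 20S core is a barrel of alpha and beta rings in which Psmb5, Psmb6 and Psmb7 carry the constitutive catalytic sites. The 19S cap recognises and unfolds substrates, while PA28 and PA200 are other activators that dock on the barrel. Interferon induces Psmb8, Psmb9 and Psmb10, which take the places of Psmb5, Psmb6 and Psmb7 and form the immunoproteasome, and also PA28 alpha and beta (Psme1 and Psme2). The immunoproteasome cuts peptides that are presented on MHC class I molecules, and activated microglia are known to make it.

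Libraries held 46174795 to 58253086 gene counts, and the members took 0.180% to 0.305% of them. Levels are given as CPM, gene counts scaled to a common library size, after TMM, an edgeR scaling that assumes most genes keep their level. A gene is called higher or lower where edgeR's quasi-likelihood F test gave a Benjamini-Hochberg adjusted p under 0.05 over the 16740 genes tested. Of these genes, 31.7% were called higher and 30.7% lower in EAE than in healthy libraries. The shares were 12.5% and 12.1% with metformin against control EAE, and 20.3% and 16.3% with metformin against healthy. Summed CPM of 10 microglia markers was 18580 to 20890 in healthy libraries, 4897 to 8064 in control EAE and 8586 to 18320 with metformin, and 9 of the 10 were lower in EAE than in healthy libraries. Tmem119, whose promoter drives the Cre, was among them (a log2 change of -1.74 ± 0.19 SE). With metformin 8 of the 10 were higher than in control EAE. Of 6 monocyte-derived cell markers 4 could be tested and 3 of them were higher in EAE; their summed CPM was 2.855 to 10.03 in healthy and 233.1 to 510.0 in control EAE libraries. That sum is nearly all Fn1 (mean 4.29 and 359.0 CPM), while Plac8 had 0.257 and 2, F13a1 0.157 and 1.18, and Ccr2 1.16 and 0.846 CPM, not called. Each tested marker of border macrophages (2 of 5), T cells (3 of 7) and neutrophils (2 of 5) was higher in EAE, with sums of at most 1.14, 0.446 and 0.103 CPM in healthy and 47.8 to 83.9, 1.41 to 6.15 and 2.68 to 8.25 CPM in control EAE libraries; Pf4 and Ly6g were at 0. The border macrophage sum in control EAE is nearly all Ms4a7 (mean 56.2 CPM, and 0.244 in healthy libraries). Mrc1, the other marker tested, had a mean of 1.13 CPM in control EAE and 0.367 in healthy libraries. Neuron markers summed to 329.4 to 458.6 CPM in healthy, 142.4 to 214.0 in control EAE and 188.7 to 459.6 CPM in metformin libraries, and all 7 were lower in EAE. Oligodendrocyte markers summed to 3336 to 3806, 2645 to 3379 and 2595 to 3144 CPM in the same order, and 4 of 5 tested were lower in EAE. Of 5 astrocyte markers 2 were higher and 2 lower in EAE. Of 3 endothelial markers tested 2 were higher and 1 was lower. The libraries were thus not of microglia alone. The part of these other cells in the results on members was not tested.

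Some libraries stood apart. Control EAE replicate 10 had the highest CPM of the 6 control EAE libraries for 35 of 42 members (83.3%), against 33.2% of all genes tested, and the lowest summed microglia markers of all libraries. Metformin EAE replicate 22 went against its group: its microglia markers (18320 CPM) lay just under the healthy range, and its monocyte-derived cell markers, nearly all Fn1, summed to 9.119 CPM, in the healthy range, where the other 5 metformin libraries had 164.0 to 533.1 CPM. It was the lowest metformin library for 30 of 42 members (71.4%), against 33.7% of all genes, and 26 members lay within the healthy range there. Metformin EAE replicate 21 was the highest metformin library for 25 of 42 members (59.5%), against 17.7% of all genes. Without it Psma2, Psma5 and Psmb10 were also called lower with metformin than in control EAE. Against healthy libraries, Psma7, Psmb1 and Psme2 then lost their calls. The counts of members called, and those of other pathway genes, are also given without control EAE replicate 10 and metformin EAE replicate 22.

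Relative to the other genes, most proteasome genes were higher in EAE than in healthy microglia. Of 42 members, 30 were higher, 1 was lower (Psma3) and 11 were not called, where 31.7% of all genes tested were called higher and 30.7% lower. The median log2 change of the members was 0.46, against -0.00 over all genes. In 23 members every control EAE library lay above every healthy one, a pattern seen in 20.1% of all genes, and none had the reverse pattern, against 19.3%. Without control EAE replicate 10 the counts were 28 higher and 1 lower (5242 and 5280 of all genes), the calls of Psmc2 and Psmc6 being lost.

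The direction in EAE holds relative to the other genes rather than to the library total. With library totals alone as scaling, the median of all genes moved to -0.42, 11 members were higher and 9 lower. The 11 were Psma1, Psma5, Psma7, Psmb1, Psmb4, Psmb10, Psmd2, Psmd8, Psmd9, Psme1 and Psmg4; the other 19 of the 30 had log2 changes of -0.20 to 0.37 and lost their calls. The 9 were Psma3 and, not called under TMM, Psmc5, Psmd1, Psmd3, Psmd5, Psmd6, Psmd11, Psmd14 and Psme3. Of the 42 members 13 changed sign, among them 6 of the 30 called higher (Psma6, Psmb7, Psmc1, Psmc2, Psmc4 and Psmf1). Relative to the median of all genes, the members' median was 0.468 under library totals and 0.459 under TMM. Libraries carry title numbers in 3 runs (1 to 6, 9 to 14 and 17 to 22), and within these the labels name no batch. Control EAE means exceeded healthy means for 35, 39 and 34 of 42 members in the 3 runs.

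With metformin, members were lower than in control EAE or were not called. None of 42 was higher in edgeR's test (0 also at an unadjusted p under 0.05, and 0 in DESeq2), 17 were lower and 25 were not called, where 12.5% of all genes were higher and 12.1% lower. The median log2 change was -0.28, against 0.01 over all genes, and 7 members had every metformin library under every control EAE library, against 5.44% of all genes. None had every metformin library above every control EAE library, against 4.9%. Without metformin EAE replicate 22 the count was 12, without control EAE replicate 10 it was 13, and without both, a setting chosen after seeing the data, it was 10. Psmb2, Psmb5, Psmb7, Psmc4, Psmd7, Psmd13 and Psmg3 lost their calls in that last setting. Under library totals alone 5 members were lower (Psmd2, Psmd4, Psmd8, Psmd9 and Psmg4), 12 lost their calls at log2 changes of -0.30 to -0.06, Psmd6 was higher, and 12 changed sign, none of them called.

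Against healthy libraries, 10 of 42 members remained higher in metformin-treated EAE and 32 were not called, where 36.6% of all genes were called, 20.3% higher and 16.3% lower. None was lower in edgeR's test (1 at an unadjusted p under 0.05, and 0 in DESeq2). The median log2 change was 0.17, against -0.00 over all genes, and 4 members (Psmb10, Psmd12, Psme1 and Psme4) had every metformin library above every healthy one, against 6.82% of all genes, and none had the reverse pattern, against 6.12%. With any 1 library left out, 7 to 17 members and 2884 to 4031 of all genes were higher. The count of higher members was 16 without metformin EAE replicate 22, 17 without control EAE replicate 10 and 22 without both. It was 3 (Psma1, Psmd8 and Psme1), with 6 lower (Psma3, Psmc3, Psmc5, Psmd1, Psmd3 and Psme3), under library totals alone; the other 7 had log2 changes of 0.08 to 0.44, and 14 members changed sign, none of them called. These comparisons share their healthy and control EAE libraries with the ones before, so their counts are not independent of each other.

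**Figure D1:**
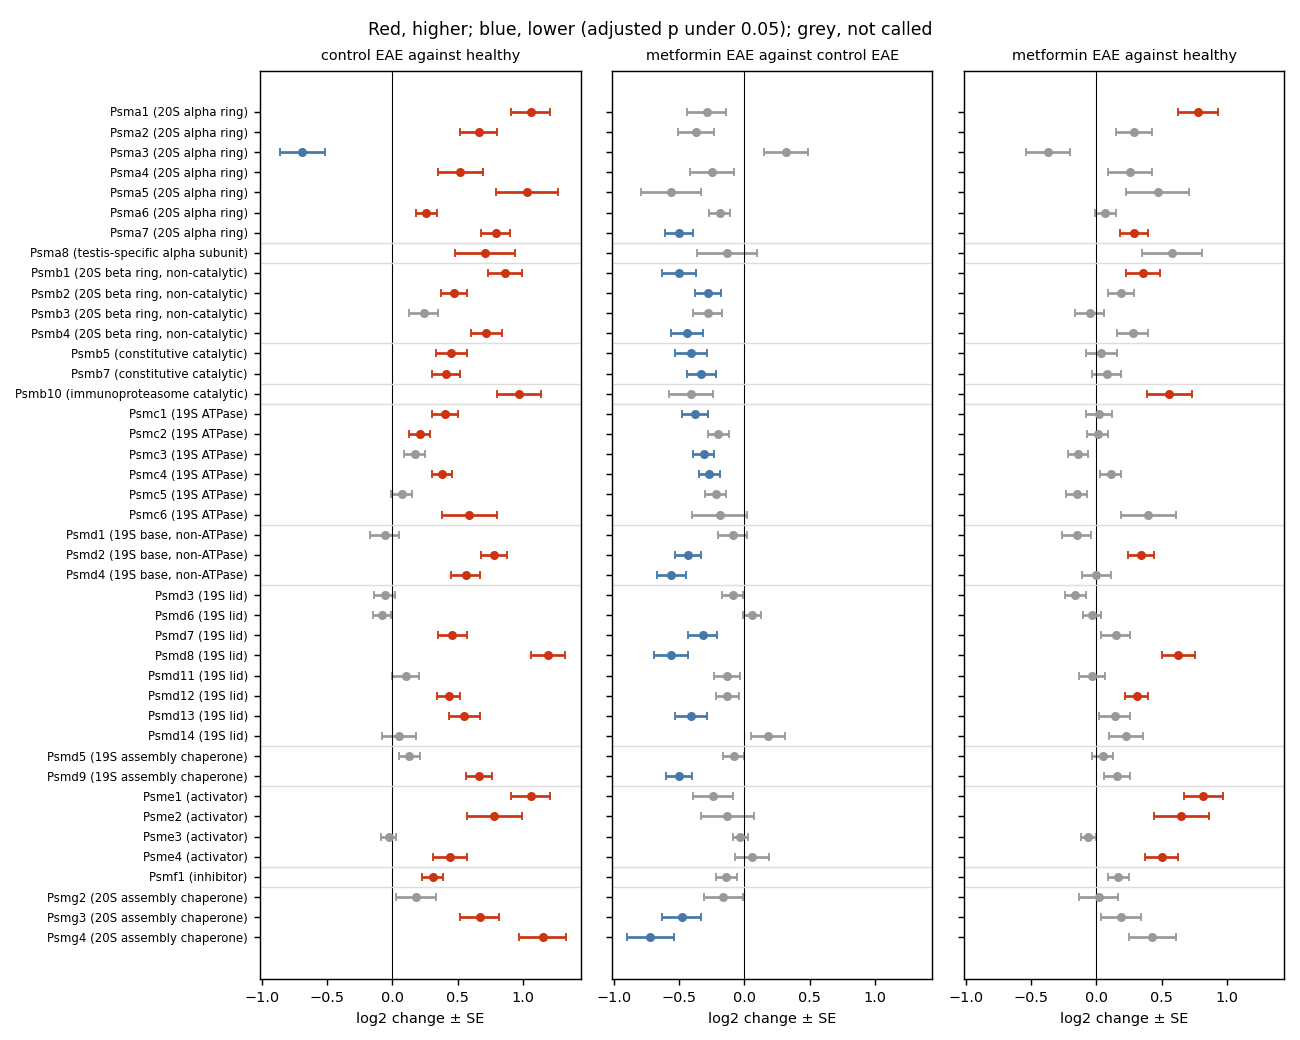
Log2 change of each of the 42 members with its standard error (x axis) in the 3 comparisons, grouped by role (y axis), from 6 libraries per group. Red points are higher and blue points lower at an adjusted p under 0.05, and grey points were not called; 30 members are red and 1 is blue in EAE against healthy, 17 are blue with metformin against control EAE and 10 are red with metformin against healthy. The scaling is TMM; under library totals alone 13 of the 42 members change sign in EAE against healthy, 6 of them called.

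The catalytic subunits could be compared at only 1 of the 3 active sites. Psmb8 and Psmb9, the immunoproteasome subunits that replace Psmb5 and Psmb6, were listed at 0 in all 18 libraries. So was the constitutive Psmb6, which every cell uses, together with Psmb11, a thymus-specific subunit, the 19S chaperone Psmd10 and the 20S chaperone Psmg1. Of the 21303 protein-coding genes listed, 4290 (20.1%) were at 0 throughout, so a 0 here does not show that a gene was silent. The peptide transporter genes Tap1 and Tap2, which lie beside Psmb9 and Psmb8 in the MHC region, were at 0 as well.

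Psmb10, the immunoproteasome subunit with trypsin-like activity, lies on the minus strand at chr8:105935735-105938444 (mm10). Its CPM was 48.5 to 59.0 in healthy libraries (median 50.8), 71.8 to 182 in control EAE (median 90.4) and 66.3 to 101 with metformin (median 71.3). Each EAE library, treated or not, lay above each healthy one, and the 182 was control EAE replicate 10, the next being 96.8. The log2 change in EAE was 0.97 ± 0.17 SE (adjusted p = 8.12e-05, edgeR) and 0.72 without replicate 10. With metformin it was -0.41 ± 0.17 against control EAE (adjusted p = 0.0861), and -0.50 to -0.16 with any 1 library left out. The -0.16 was without control EAE replicate 10. Without control EAE replicate 2, or without metformin EAE replicate 21, Psmb10 was called lower with metformin (adjusted p at most 0.0425, edgeR). Against healthy the log2 change was 0.56 ± 0.17 (adjusted p = 0.0159), or 0.36 and not called under library totals alone. In metformin EAE replicate 22, where most members lay at the healthy level, Psmb10 stood at 68.1 CPM, above all healthy libraries.

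Psmb7, the constitutive subunit at the same site, had 18.8 to 23.5 CPM in healthy libraries (median 20.6), 24.1 to 36.2 in control EAE (median 25.9) and 16.4 to 26.2 with metformin (median 22.2). Control EAE and healthy libraries did not overlap. The highest metformin library (26.2) lay in the control EAE range and the lowest (16.4) under the healthy range. The other metformin libraries lay within or just above the healthy range of Psmb7. Its log2 change was 0.41 ± 0.11 in EAE (adjusted p = 0.00393), or -0.00 under library totals alone, and -0.33 ± 0.11 with metformin against control EAE (adjusted p = 0.0389), a call lost in 7 of the 18 single omissions of a library (adjusted p up to 0.0898). Psmb7 shares 405 exonic bases, 11.8% of its exons, with Nek6 on the opposite strand. The kit keeps strand, but whether the counting used it is not given in the sources used here.

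Psmb5, the constitutive subunit with chymotrypsin-like activity, had 19.2 to 24.8 CPM in healthy libraries (median 20.6), 23.3 to 40.5 in control EAE (median 26.6) and 19.1 to 24.1 with metformin (median 22.1). The metformin libraries lay almost wholly inside the healthy range. Its log2 change was 0.45 ± 0.12 in EAE (adjusted p = 0.00258), -0.41 ± 0.12 with metformin against control EAE (adjusted p = 0.0167) and 0.04 ± 0.12 against healthy (adjusted p = 0.812). Library totals alone gave 0.04 in EAE and -0.20 against control EAE, neither called. Per kilobase of the principal transcript, the mean level of Psmb10 was 39.7, 77.7 and 58.4 CPM per kb in healthy, control EAE and metformin libraries, above Psmb7 (17.9, 23.7 and 18.9) and Psmb5 (23.6, 32.2 and 24.2) in each group.

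The balance of immunoproteasome to constitutive subunit was measured as the log2 ratio of Psmb10 to Psmb7 counts within each library, which no scaling between libraries can change. It was 1.08 to 1.57 in healthy libraries (mean 1.33 ± 0.17 SD, n = 6), 1.5 to 2.33 in control EAE (1.83 ± 0.28) and 1.66 to 2.06 with metformin (1.80 ± 0.16). The metformin libraries all lay above the healthy ones, and the control EAE libraries overlapped the healthy ones slightly. The ratio was higher in EAE by 0.50 (exact two-sided permutation test, p = 0.004329, adjusted p = 0.007792 over 9 ratio tests). It was higher with metformin than in healthy libraries by 0.48 (exact permutation p = 0.002165, the smallest this design can give, adjusted p = 0.00487). Between metformin and control EAE it differed by -0.02 (exact permutation p = 0.8723), and by -0.09 to 0.08 with any 1 library left out. Metformin EAE replicate 22 had the highest ratio of its group, 2.06. Its Psmb10, at 68.1 CPM, lay near the low end of its group (66.3 to 101). Its Psmb7, at 16.4 CPM, was the lowest of all 18 libraries.

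**Figure D2:**
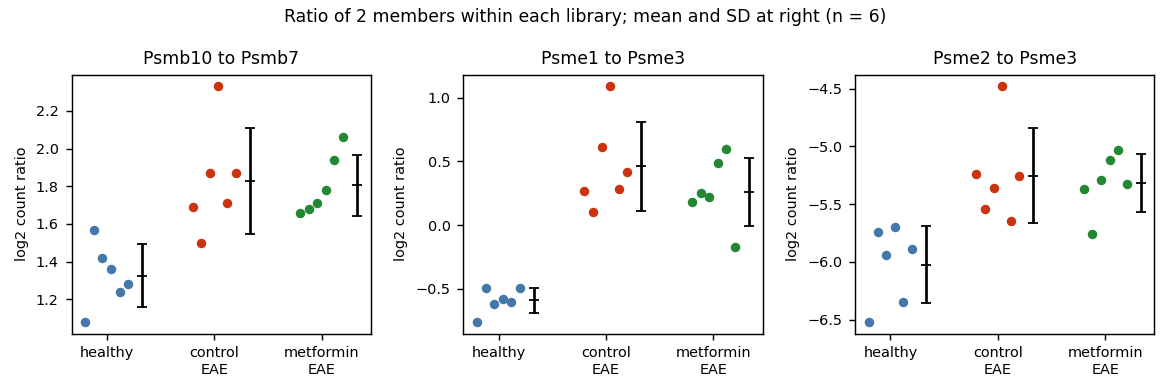
Log2 ratio of counts of 2 members within each library (y axis) for healthy, control EAE and metformin EAE libraries (x axis). Points are libraries and the bar beside them is the mean with its SD (n = 6); the mean Psmb10 to Psmb7 ratio is 1.33, 1.83 and 1.80, the mean Psme1 to Psme3 ratio -0.59, 0.46 and 0.26, and the mean Psme2 to Psme3 ratio -6.02, -5.26 and -5.32.

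The activators divided by gene. Of 4 members, Psme1, Psme2 and Psme4 were higher in EAE, against 31.7% of all genes, and Psme3 was not called. None was called between metformin and control EAE, against 12.5% of all genes higher and 12.1% lower. Psme1, Psme2 and Psme4 were also called higher with metformin than in healthy libraries, against 20.3% of all genes. Psme1, PA28 alpha (chr14:55578123-55581529, plus strand, mm10), had 91.3 to 105.5 CPM in healthy libraries (median 93.0), 153 to 303 in control EAE (median 182) and 124 to 224 with metformin (median 157). No EAE library, treated or not, reached down to the healthy range, and the lowest metformin library, at 124, was replicate 22. The log2 change was 1.06 ± 0.15 in EAE (adjusted p = 5.89e-06), -0.24 ± 0.15 with metformin against control EAE (adjusted p = 0.234) and 0.82 ± 0.15 against healthy (adjusted p = 0.000327). Without control EAE replicate 10 the first 2 were 0.90 and -0.08.

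Psme2, PA28 beta (chr14:55587441-55591113, minus strand, mm10), had 1.71 to 2.78 CPM in healthy libraries (median 2.28), 2.62 to 6.39 in control EAE (median 3.49) and 2.44 to 4.52 with metformin (median 3.4). All 3 ranges overlap. It was higher in EAE by 0.78 ± 0.21 on the log2 scale (adjusted p = 0.00294) and with metformin than in healthy libraries by 0.65 ± 0.21 (adjusted p = 0.019), a call lost without metformin replicate 21 (adjusted p = 0.0542). Library totals alone gave 0.37 and 0.44, neither called. Per kilobase its mean level in healthy libraries was 2.32 CPM per kb against 85.6 for Psme1, although PA28 is built from both proteins. Psme2b is a near-identical copy of Psme2, so the authors' counting could have split or dropped their reads and the level of Psme2 is uncertain.

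Psme3, PA28 gamma, the nuclear activator that interferon does not induce (chr11:101316213-101323537, plus strand, mm10), had 134 to 158 CPM in healthy libraries (median 141), 132 to 146 in control EAE (median 142) and 131 to 148 with metformin (median 136). The groups lay on top of each other, with log2 changes of -0.03 ± 0.06 in EAE (adjusted p = 0.679), -0.03 ± 0.06 with metformin against control EAE and -0.06 ± 0.06 against healthy. By library totals alone Psme3 was lower in EAE (-0.45) and with metformin than in healthy libraries (-0.25). Psme4, PA200, which is known for its part in the removal of acetylated histones, had 8.65 to 15.1 CPM in healthy libraries (median 12.6), 14.3 to 24.1 in control EAE (median 15.2) and 16.6 to 18.1 with metformin (median 17.4). Its metformin libraries all lay above the healthy ones. The log2 change of Psme4 was 0.44 ± 0.13 in EAE (adjusted p = 0.00687), 0.06 ± 0.13 with metformin against control EAE (adjusted p = 0.784) and 0.50 ± 0.13 against healthy (adjusted p = 0.00613). Library totals alone gave 0.03 in EAE and 0.29 against healthy, neither called.

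The ratio of Psme1 to Psme3 within a library separated healthy from EAE libraries completely. On the log2 scale it was -0.76 to -0.49 in healthy libraries, 0.10 to 1.09 in control EAE and -0.17 to 0.60 with metformin. The difference was 1.05 in EAE and 0.85 with metformin, both against healthy (exact two-sided permutation p = 0.002165 and adjusted p = 0.00487 each). Between metformin and control EAE it was -0.20 (exact permutation p = 0.3117, adjusted p = 0.4007), and -0.27 to -0.08 with any 1 library left out. The Psme2 to Psme3 ratio was higher than in healthy libraries by 0.77 in EAE (exact permutation adjusted p = 0.00487) and by 0.71 with metformin (adjusted p = 0.00974). It differed by -0.06 between metformin and control EAE (exact permutation adjusted p = 0.8723). Each of the calls on ratios held with any 1 library left out.

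**Figure D3:**
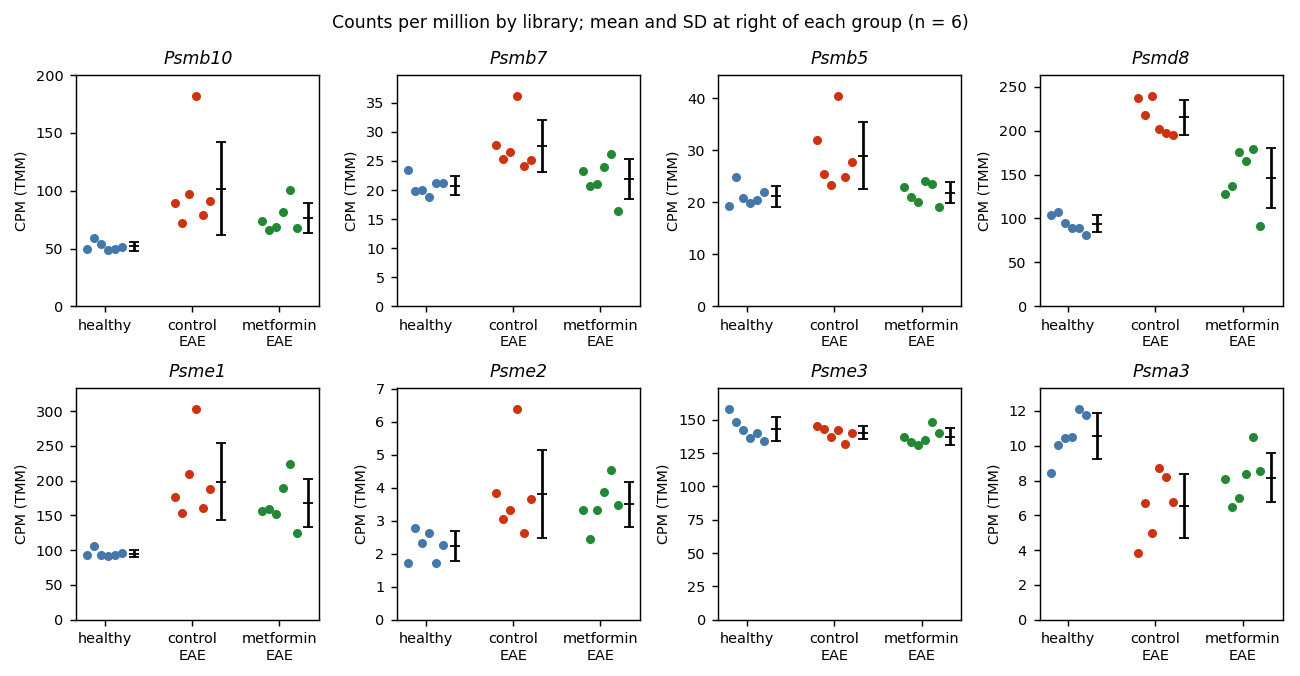
TMM-scaled CPM (y axis, from 0) of 8 members in the healthy, control EAE and metformin EAE libraries (x axis); points are libraries and the bar beside them is the mean with its SD (n = 6). Psmb10 and Psme1 lie above the healthy range in every EAE library with and without metformin, Psme3 has 131 to 158 CPM throughout, and Psma3 has a lower median in control EAE (6.76) than in healthy libraries (10.5).

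Promoter windows of RefSeq (GRCm38.p6, from 250 bases before to 50 after a gene's start) were matched for 34 of 42 members. These 34 genes had 37 windows. The shares of members below are per gene and those of all windows per window, so they are not quite like measures. They were searched on both strands for the interferon-stimulated response element (GAAA and GAAA with 2 bases of any kind between them), the gamma-activated site TTCNNNGAA, the antioxidant response element TGACNNNGC and the CCAAT box; motifs were counted singly even where they overlapped. The interferon element was in 5 of 34 members (14.7%), against 3.4% of all 32851 windows: Psme1, Psmg4, Psmd4, Psmd9 and Psmb3. The gamma-activated site was in 1 (Psmd2, 2.94% against 8.3%), the antioxidant element in 5 (14.7% against 12.4%) and the CCAAT box in 11 (32.4% against 37.4%). A match describes letters and is not a known binding site. Among the genes with the interferon element, Psmb3 was not called in EAE. Psmd8, Psma1 and Psme2 were higher in EAE, and no interferon element was found in their windows. The windows of 4 members are shown because they set 3 genes that were higher in EAE (Psme1, Psmg4 and Psmb10) beside 1 that was not called (Psme3). Capitals mark the interferon element on either strand. The windows are chr14:55578244-55578543 on the plus strand (Psme1), chr13:34162714-34163013 on the plus strand (Psmg4), chr8:105938343-105938642 on the minus strand (Psmb10) and chr11:101315963-101316262 on the plus strand (Psme3).
Psme1: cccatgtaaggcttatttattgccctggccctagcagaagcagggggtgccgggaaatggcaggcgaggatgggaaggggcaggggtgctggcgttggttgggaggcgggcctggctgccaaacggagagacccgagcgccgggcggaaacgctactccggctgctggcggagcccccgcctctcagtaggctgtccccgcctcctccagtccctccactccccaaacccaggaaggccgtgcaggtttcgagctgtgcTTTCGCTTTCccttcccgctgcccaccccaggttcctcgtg
Psmg4: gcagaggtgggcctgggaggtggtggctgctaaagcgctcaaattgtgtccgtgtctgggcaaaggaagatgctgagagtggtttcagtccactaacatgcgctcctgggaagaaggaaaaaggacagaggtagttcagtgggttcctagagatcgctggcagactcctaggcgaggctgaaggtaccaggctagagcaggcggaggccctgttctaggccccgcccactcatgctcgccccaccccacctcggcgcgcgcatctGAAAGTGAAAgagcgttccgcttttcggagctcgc
Psmb10: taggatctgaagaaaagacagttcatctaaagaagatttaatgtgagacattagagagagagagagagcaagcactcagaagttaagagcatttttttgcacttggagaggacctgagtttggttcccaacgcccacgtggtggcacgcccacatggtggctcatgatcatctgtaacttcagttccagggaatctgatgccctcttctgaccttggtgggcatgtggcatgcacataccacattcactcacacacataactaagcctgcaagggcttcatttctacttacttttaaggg
Psme3: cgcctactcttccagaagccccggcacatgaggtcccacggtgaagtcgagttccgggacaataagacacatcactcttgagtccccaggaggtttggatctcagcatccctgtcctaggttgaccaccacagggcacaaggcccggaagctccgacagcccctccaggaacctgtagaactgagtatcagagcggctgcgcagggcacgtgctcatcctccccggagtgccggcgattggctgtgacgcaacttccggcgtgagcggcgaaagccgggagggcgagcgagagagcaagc
The element starts at base 260 of the Psme1 window and at base 266 of the Psmg4 window, counted from 1 at the 5′ end, and none of the 4 motifs other than a CCAAT box in Psme3 was found in the windows of Psmb10 and Psme3.

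The alpha ring of the 20S core, which gates entry to the barrel, moved widely. In EAE 6 of its 7 members were higher and Psma3 was lower, against 31.7% and 30.7% of all genes. The change of Psma6 was below 0 under library totals alone. With metformin 1 was lower than in control EAE (Psma7), and 2 were higher than in healthy libraries (Psma1 and Psma7). Psma7 had 22.1 to 27.3 CPM in healthy libraries (median 26.0), 35.9 to 58.5 in control EAE (median 42) and 24.7 to 37.6 with metformin (median 30.6). The control EAE libraries did not overlap the healthy ones, and the log2 change of Psma7 was 0.79 ± 0.11 in EAE (adjusted p = 7.6e-06) and -0.50 ± 0.11 with metformin against control EAE (adjusted p = 0.00481). Against healthy it was 0.29 ± 0.11 (adjusted p = 0.0486), which 14 of 18 single omissions of a library raised over 0.05. Library totals alone gave -0.29 against control EAE and 0.08 against healthy, neither called. Psma1 had 29.1 to 38.6 CPM in healthy libraries (median 34.7), 62.1 to 104.5 in control EAE (median 66.7) and 35.4 to 72.3 with metformin (median 61.5). The metformin libraries lay near control EAE except replicate 22, which had the 35.4. The log2 change of Psma1 was 1.06 ± 0.15 in EAE (adjusted p = 4.93e-06), -0.29 ± 0.15 with metformin against control EAE (adjusted p = 0.155) and 0.78 ± 0.15 against healthy (adjusted p = 0.000439).

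Psma3 went the other way, with 8.42 to 12.1 CPM in healthy libraries (median 10.5), 3.86 to 8.72 in control EAE (median 6.76) and 6.48 to 10.5 with metformin (median 8.25). The ranges overlap. It was lower in EAE by a log2 change of -0.69 ± 0.17 (adjusted p = 0.0016), and neither 0.32 ± 0.17 against control EAE (adjusted p = 0.176) nor -0.37 ± 0.17 against healthy (adjusted p = 0.0909) was called with metformin. Psma5 had the fewest counts of all members, with 1.28 to 2.62 CPM in healthy libraries (median 1.80), 2.64 to 5.94 in control EAE (median 3.91) and 1.56 to 3.97 with metformin (median 2.57). Its change was 1.03 ± 0.24 in EAE (adjusted p = 0.000824) and -0.56 ± 0.23 with metformin against control EAE (adjusted p = 0.084). Psma8, a testis-specific relative of Psma7, had 2.50 to 4.82 CPM in healthy libraries (median 3.58), 5.30 to 7.54 in control EAE (median 5.68) and 2.75 to 8.80 with metformin (median 5.09). It was higher in EAE by 0.71 ± 0.23 (adjusted p = 0.0116), or 0.30 and not called under library totals alone, but reads of its relative could be counted to it, so this is uncertain.

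In the beta ring outside the catalytic sites, 3 of 4 members (Psmb1, Psmb2 and Psmb4) were higher in EAE, against 31.7% of all genes. The same 3 were lower with metformin than in control EAE, against 12.1% of all genes. Psmb1 had 54.3 to 66.5 CPM in healthy libraries (median 58.2), 83.0 to 161 in control EAE (median 99.6) and 57.6 to 85.2 with metformin (median 77.3). Control EAE lay above healthy without overlap, with replicate 10 at the top, and the metformin libraries lay between or across. Its log2 change was 0.86 ± 0.13 in EAE (adjusted p = 1.32e-05) and -0.50 ± 0.13 with metformin (adjusted p = 0.00927). Against healthy it was 0.36 ± 0.13 (adjusted p = 0.036), a call lost in 10 of the 18 single omissions of a library (adjusted p up to 0.0828). With library totals alone both metformin calls of Psmb1 were lost (-0.30 and 0.15). Psmb2 had 38.8 to 49.0 CPM in healthy libraries (median 41.1), 53.8 to 71.7 in control EAE (median 56.0) and 38.2 to 57.0 with metformin (median 47.2), and its call between metformin and control EAE was lost in 7 of the single omissions. With library totals alone Psmb2 changed by 0.05 in EAE and -0.07 against control EAE, neither called. Psmb3 had 7.44 to 9.71 CPM in healthy libraries (median 8.92), 9.24 to 12 in control EAE (median 10.1) and 6.67 to 9.30 with metformin (median 8.79), with no call in any comparison (adjusted p = 0.0561, 0.0564 and 0.762).

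**Figure D4:**
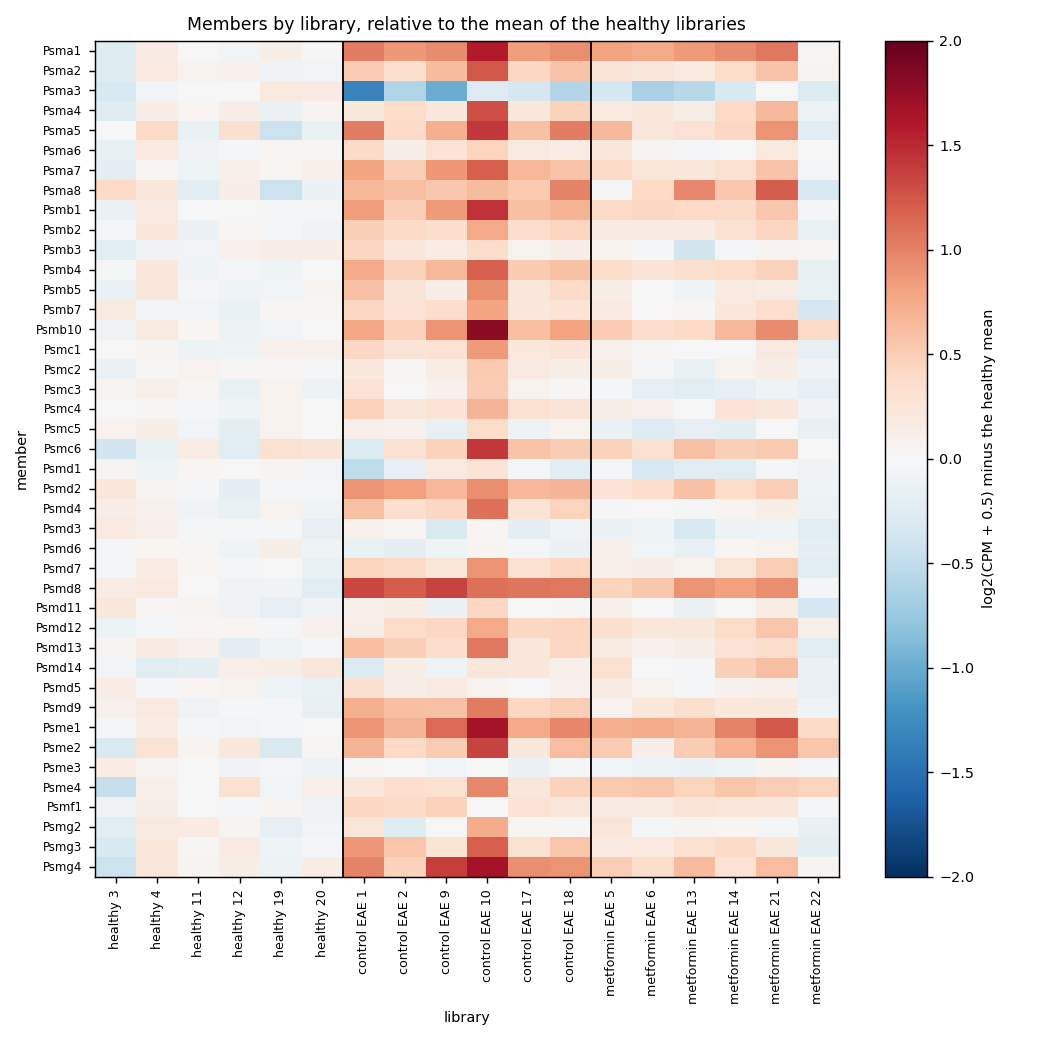
Log2(CPM + 0.5) of the 42 members (rows) in the 18 libraries (columns), minus the mean of the healthy libraries. Red is above and blue below the healthy mean; control EAE replicate 10 has the highest CPM of its group for 35 of 42 members, and metformin EAE replicate 22 the lowest of its group for 30. Library totals alone, in place of TMM, turn the sign of 13 of the 42 members in EAE against healthy.

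The 6 ATPases of the 19S base unfold substrates and thread them into the core. In EAE 4 of them were higher (Psmc1, Psmc2, Psmc4 and Psmc6), against 31.7% of all genes. The changes of Psmc1, Psmc2 and Psmc4 were below 0 under library totals alone. With metformin 3 of the 6 were lower than in control EAE (Psmc1, Psmc3 and Psmc4), against 12.1% of all genes, and none was called against healthy. Psmc1 had 36.4 to 41.5 CPM in healthy libraries (median 39.7), 45.4 to 71.4 in control EAE (median 47.6) and 34.9 to 44.6 with metformin (median 39.6). Control EAE lay above both other groups without overlap. Its log2 change was 0.40 ± 0.10 in EAE (adjusted p = 0.00155), -0.38 ± 0.10 with metformin against control EAE (adjusted p = 0.01) and 0.02 ± 0.10 against healthy (adjusted p = 0.867). By library totals alone the first 2 were -0.01 and -0.17, neither called. Psmc6 had 6.37 to 10.5 CPM in healthy libraries (median 8.57), 6.91 to 23.2 in control EAE (median 12) and 8.39 to 12.9 with metformin (median 11.9). Its change of 0.59 ± 0.21 in EAE (adjusted p = 0.0184) was 0.34 without control EAE replicate 10 (adjusted p = 0.0722), the library with the 23.2, and 0.20 by library totals alone. Psmc5 had 88.9 to 111 CPM in healthy libraries (median 105), 92.5 to 132 in control EAE (median 108) and 85.5 to 102 with metformin (median 91.9), and was not called (log2 change of 0.07 ± 0.08 in EAE, or -0.35 and called lower by library totals alone).

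Of the other base subunits, Psmd2, a scaffold, and Psmd4, a ubiquitin receptor, were higher in EAE and lower with metformin than in control EAE. Psmd2 had 75.0 to 99.2 CPM in healthy libraries (median 83.9), 135 to 164 in control EAE (median 144) and 80.3 to 129 with metformin (median 110.0). Control EAE lay above both other groups without overlap. Psmd2 changed on the log2 scale by 0.78 ± 0.10 in EAE (adjusted p = 2.22e-06), -0.43 ± 0.10 with metformin against control EAE (adjusted p = 0.0049) and 0.34 ± 0.10 against healthy (adjusted p = 0.0106), the last 0.13 and not called by library totals alone. Psmd4 had 52.2 to 62.4 CPM in healthy libraries (median 57.1), 69.2 to 123 in control EAE (median 77.3) and 52.9 to 61.7 with metformin (median 56.4). All metformin libraries fell inside the healthy range, and the change was 0.56 ± 0.11 in EAE (adjusted p = 0.000219), -0.56 ± 0.11 with metformin against control EAE (adjusted p = 0.0025) and -0.00 ± 0.11 against healthy (adjusted p = 0.98). By library totals alone the EAE change of Psmd4 was 0.15 and not called. Psmd1, the other large scaffold, had 35.7 to 39.3 CPM in healthy libraries (median 38.4), 26.6 to 45.8 in control EAE (median 35.4) and 30.1 to 37.5 with metformin (median 34.3), and was not called, though by library totals alone it was lower in EAE (-0.47).

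In the lid, which removes ubiquitin from substrates, 4 of 8 members were higher in EAE (Psmd7, Psmd8, Psmd12 and Psmd13), against 31.7% of all genes. The other 4 were not called (Psmd3, Psmd6, Psmd11 and Psmd14). Psmd7, a scaffold of the deubiquitinase, had 83.5 to 101.5 CPM in healthy libraries (median 90.6), 108 to 171.2 in control EAE (median 120.5) and 78.3 to 129 with metformin (median 99.2). Its change of -0.32 ± 0.11 with metformin against control EAE (adjusted p = 0.0475) missed the threshold in 15 of the 18 single omissions of a library and was -0.11 by library totals alone. Psmd8 had the largest log2 change in EAE of the 42 members. Its CPM was 80.7 to 108 in healthy libraries (median 92.0), 195 to 239.7 in control EAE (median 209.8) and 90.9 to 179 with metformin (median 151). Control EAE lay above both other groups without overlap, replicate 10 was not its highest library, and the 90.9 was metformin replicate 22. The change was 1.19 ± 0.13 in EAE (adjusted p = 5.22e-07), -0.56 ± 0.13 with metformin against control EAE (adjusted p = 0.00554) and 0.63 ± 0.13 against healthy (adjusted p = 0.000993). Psmd12 had 34.8 to 39.5 CPM in healthy libraries (median 37.5), 41.2 to 63.2 in control EAE (median 49.9) and 40.0 to 55.2 with metformin (median 45.2). Its changes were 0.43 ± 0.09 in EAE (adjusted p = 0.000435), -0.13 ± 0.09 (adjusted p = 0.325) and 0.31 ± 0.09 (adjusted p = 0.0138) in the same order. By library totals alone the first and last were 0.02 and 0.10, neither called.

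Psmd14, the deubiquitinase of the lid, had 12.8 to 17.4 CPM in healthy libraries (median 15.2), 12.2 to 17.4 in control EAE (median 16.1) and 13.6 to 22.9 with metformin (median 16.7). Psmd3 had 77.5 to 98.8 CPM in healthy libraries (median 84.5), 71.2 to 91.9 in control EAE (median 85.7) and 69.7 to 81.5 with metformin (median 80.4). For Psmd6 the values were 33.4 to 38.3 (median 35.2), 31.3 to 36.8 (median 32.8) and 31.3 to 37.8 CPM (median 35.1). In these 3 lid subunits the groups overlapped in each comparison, with log2 changes in EAE of 0.05 ± 0.13, -0.06 ± 0.08 and -0.08 ± 0.07, or -0.36, -0.48 and -0.50, each called lower, by library totals alone.

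Among the assembly chaperones, Psmd9 of the 19S base and Psmg3 and Psmg4 of the 20S core were higher in EAE and lower with metformin than in control EAE, while Psmd5 and Psmg2 were not called in any comparison. Psmg4 had 4.28 to 7.03 CPM in healthy libraries (median 6.34), 8.35 to 19.9 in control EAE (median 12.1) and 6.18 to 9.51 with metformin (median 8.14). Control EAE lay above healthy without overlap and overlapped the metformin libraries slightly. Its log2 change was 1.15 ± 0.18 in EAE (adjusted p = 1.55e-05), -0.72 ± 0.18 with metformin against control EAE (adjusted p = 0.00688) and 0.43 ± 0.18 against healthy (adjusted p = 0.0602). Psmg3 had 9.92 to 14.4 CPM in healthy libraries (median 12.4), 14.9 to 29.0 in control EAE (median 18.4) and 10.8 to 16.2 with metformin (median 14.3). Its change was 0.67 ± 0.15 in EAE (adjusted p = 0.000557) and -0.48 ± 0.15 with metformin (adjusted p = 0.0227), the latter lost without metformin replicate 22 (adjusted p = 0.0528), control EAE replicate 10 (adjusted p = 0.0511) or control EAE replicate 1. By library totals alone the changes of Psmg3 were 0.26 and -0.28, neither called. Psmg3 shares 280 exonic bases, 9.68% of its exons, with Gm26938 on the same strand (3372 counts, and 14214 for Psmg3).

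Psmd9 had 23.8 to 30.2 CPM in healthy libraries (median 25.7), 35.1 to 54.8 in control EAE (median 40.0) and 24.8 to 32.9 with metformin (median 30.5). Control EAE lay above both other groups without overlap, and the log2 change was 0.66 ± 0.10 in EAE (adjusted p = 1.52e-05) and -0.50 ± 0.10 with metformin (adjusted p = 0.00282). A noncoding gene on the opposite strand overlaps 25.5% of its exonic bases, but was listed at only 165 counts against 29788 for Psmd9. Psmd5 had 22.2 to 26.9 CPM in healthy libraries (median 24.8), 24.7 to 30.6 in control EAE (median 26.4) and 22.4 to 27.5 with metformin (median 26.0). Psmg2 had 4.89 to 6.53, 4.76 to 9.87 and 5.07 to 6.82 CPM in the same order. Psmf1, PI31, an inhibitor of the core in purified systems, had 36.5 to 41.8 CPM in healthy libraries (median 37.8), 38.7 to 52.8 in control EAE (median 48.5) and 37.4 to 45.7 with metformin (median 44.2). The log2 change of Psmf1 was 0.31 ± 0.08 in EAE (adjusted p = 0.00237), or -0.13 under library totals alone, -0.14 ± 0.08 with metformin against control EAE (adjusted p = 0.22) and 0.17 ± 0.08 against healthy (adjusted p = 0.0962). Psmc3ip, set aside above, had log2 changes of 0.94 ± 0.13, -0.48 ± 0.13 and 0.46 ± 0.13, each past the threshold.

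The other genes of the pathway are given by list, beside the shares of all genes called above (31.7% higher and 30.7% lower in EAE, 12.5% and 12.1% with metformin against control EAE, 20.3% and 16.3% against healthy). Of 14 assembly factors, regulators and receptors tested, 7 were higher and 3 lower in EAE, 2 were higher and 2 lower with metformin against control EAE, and 5 were higher and 2 lower with metformin against healthy. Under library totals alone the counts were 4 and 6, 5 and 2, and 4 and 3. Without metformin EAE replicate 22 they were 8 and 3, 0 and 2, and 6 and 3, without control EAE replicate 10 they were 7 and 3, 3 and 2, and 7 and 3, and without both 7 and 5, 3 and 2, and 9 and 4. Pomp, the chaperone that matures the catalytic rings, was higher in EAE by 0.73 ± 0.16 on the log2 scale (adjusted p = 0.000645), 0.33 and not called under library totals alone. Control EAE replicate 10 had 374.3 CPM of Pomp, the other control EAE libraries 164.8 to 190.4 and healthy libraries 104.2 to 141.2. Sem1, a small lid subunit, was higher by 1.19 ± 0.17 in EAE (adjusted p = 5.14e-06), or 0.79 by library totals alone, and lower with metformin by -0.83 ± 0.16 (adjusted p = 0.0025), or -0.54 without both libraries. Its CPM was 92.5 in control EAE replicate 10, 36.9 to 55.1 in the other control EAE libraries and 22.5 to 24.3 in healthy libraries. Zfand2a, a stress-induced proteasome partner, changed by 1.76 ± 0.22 in EAE (adjusted p = 2.6e-06) and -0.77 ± 0.22 with metformin (adjusted p = 0.0158). Here control EAE replicate 10 was the lowest of its group, at 68.2 CPM where the others had 128.3 to 168.0. Usp14, a deubiquitinase bound to the cap, was higher in EAE by 0.84 ± 0.15 (adjusted p = 5.76e-05), or 0.43 by library totals alone. Nfe2l1, the transcription factor that raises proteasome genes when the proteasome is inhibited, was lower in EAE by -0.51 ± 0.10 (adjusted p = 0.000241), as was Akirin2, an adaptor for nuclear import of proteasomes, by -0.78 ± 0.09 (adjusted p = 1.29e-06); by library totals alone these were -0.94 and -1.20.

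Of 14 genes of ubiquitin supply and delivery tested, 8 were higher and 3 lower in EAE, 1 was higher and 3 lower with metformin against control EAE, and 3 were higher and 1 lower with metformin against healthy. Under library totals alone they were 0 and 5, 4 and 0, and 1 and 4. Without metformin EAE replicate 22 they were 8 and 3, 1 and 2, and 4 and 1, without control EAE replicate 10 they were 7 and 2, 0 and 2, and 3 and 2, and without both 8 and 2, 1 and 2, and 5 and 1. Ubb, which encodes polyubiquitin, was higher in EAE by 0.56 ± 0.09 on the log2 scale (adjusted p = 4.06e-05), or 0.13 and not called under library totals alone, and lower with metformin than in control EAE by -0.37 ± 0.09 (adjusted p = 0.00888), or -0.15 and not called under those totals. Of 8 interferon regulators and users of proteasome peptides tested, 5 were higher and 1 lower in EAE, 2 were higher and 0 lower with metformin against control EAE, and 6 were higher and 1 lower with metformin against healthy, or 4 and 3, 4 and 0, and 4 and 1 under library totals alone. Without control EAE replicate 10, or without metformin EAE replicate 22, the counts of this list were as in all libraries, and without both they were 6 and 1, 1 and 0, and 7 and 1. Irf1, a transcription factor of immunoproteasome genes, changed by 1.64 ± 0.24 in EAE (adjusted p = 1.05e-05), 0.04 ± 0.23 with metformin against control EAE (adjusted p = 0.92) and 1.68 ± 0.24 against healthy (adjusted p = 4.01e-05). Nlrc5, the activator of MHC class I genes, changed by 3.17 ± 0.24, 0.28 ± 0.22 (adjusted p = 0.351) and 3.45 ± 0.24 in the same order. Ifngr1, a receptor gene for interferon gamma, was the 1 called lower in EAE, by -1.02 ± 0.13 (adjusted p = 2.58e-06, edgeR). With metformin Ifngr1 was higher than in control EAE by 0.45 ± 0.13 (adjusted p = 0.0181, edgeR). Against healthy it was lower by -0.57 ± 0.13 (adjusted p = 0.00237, edgeR). In metformin EAE replicate 22 Irf1 had 140.2 and Nlrc5 24.39 CPM, where the highest healthy values were 62.7 and 4.494.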

How the data were processed

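The authors deposited a table of counts per gene, whole numbers for 39017 Ensembl genes in 18 columns, as the values and the file headers show. Per the submitters' processing notes, bcl2fastq 2.17, FastQC, Trimmomatic and the mm10 genome were used, and per the labels' protocols libraries were made with a stranded kit with mRNA enrichment and PCR. Which aligner and counter were run is not given in the sources used here. Of deposited counts from 6 to 20, 77.8% were even, against 51% over 1000, so low values may not be single reads. Counts are of amplified reads without molecular identifiers. Depth was 46174795 to 58253086 counts per library. Replicates differed by a chi-square of at least 15.5 per degree of freedom, so no library was a duplicate.

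Symbols, positions and lengths came from GENCODE M21 (GRCm38, the assembly of mm10). Counts of all 18 libraries entered 1 edgeR 4.0.16 fit in R 4.3.3 (TMM, filterByExpr with minimum count 10 and minimum total 15, robust quasi-likelihood F test, Benjamini-Hochberg over 16740 genes, prior degrees of freedom 5.28, common dispersion 0.0598). Standard errors were taken from the log2 change and the square root of F. The fit was tested on simulated data. Log2 count ratios with 0.5 added were compared by exact two-sided permutation in Python 3.11.15. DESeq2 1.42.0 and other settings were alternatives. Named members were the catalytic subunits, activators, inhibitor and chaperones, and the members with the highest and lowest change in each other structural group and comparison, with Psma7, Psmd7 and Psmd12 added after their values were seen; other pathway genes were taken from fixed lists if past the threshold. Libraries have no common replicate numbers across groups. The members and lists were chosen with earlier results of these data known. Some genes of the pathway lists are counted but not reported here by name.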

Additional observations from a re-analysis of the deposited data

Results flagged for a closer look

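In 23 of 135 groups of 6 values, the highest or lowest library lay farther from its neighbour than Dixon's 95% limit allows. Chance flags about 1 in 20 groups. Control EAE replicate 10 was that library in 16 of the 23. Its CPM, with the nearest other control EAE library in brackets, was 104.5 for Psma1 (70.6), 38.9 for Psma2 (25.2), 94.4 for Psma4 (52.9), 161.3 for Psmb1 (106.8) and 182.3 for Psmb10 (96.8). It was 71.7 for Psmb2 (59.1), 93.4 for Psmb4 (69.1), 36.2 for Psmb7 (27.8), 71.4 for Psmc1 (52.2) and 74.3 for Psmc2 (59.9). It was 23.2 for Psmc6 (12.8), 122.8 for Psmd4 (85.7), 171.2 for Psmd7 (124.3), 6.39 for Psme2 (3.84) and 24.1 for Psme4 (16.9). The log2 ratio of Psme2 to Psme3 was -4.48 there, and the next was -5.24.

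The other flagged libraries were fewer. Healthy replicate 4 was the highest of its group for Psmb1 (66.5 CPM, next 58.6), Psmb4 (47.0, next 41.1) and Psme1 (105.5, next 95.4). Metformin EAE replicate 22 was the lowest of its group for Psmb1 (57.6 CPM, next 76.6) and Psmf1 (37.4, next 43.1), and replicate 13 was the lowest for Psmb3 (6.67, next 8.61). Control EAE replicate 18 was the highest for Psma8 (7.54, next 5.88). What sets these libraries apart was not tested.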

How the results depend on the processing

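No paired analysis was possible because the groups compared have no replicate number in common. With each library left out in turn, members higher in EAE numbered 28 to 31 and lower 1, members lower with metformin than in control EAE 12 to 20 and higher 0, and members higher with metformin than in healthy libraries 7 to 17 and lower 0 to 1 (1 without control EAE replicate 1). The call of Psmc4 between metformin and control EAE was lost without metformin EAE replicate 22 (adjusted p = 0.055, edgeR). RLE size factors, DESeq2, no filter on low counts, and the run of title numbers as covariate kept each count within 1.5 times. Library totals alone gave 11 higher and 9 lower members (2604 and 8649 of all genes) in EAE, 1 and 5 (4712 and 616) with metformin against control EAE, and 3 and 6 (1927 and 4786) with metformin against healthy. This scaling moves the median of all genes by -0.42, 0.23 and -0.20 in the 3 comparisons. In EAE the log2 changes of members that turned, with a call under either scaling, were then -0.16 for Psma6, -0.00499 for Psmb7, -0.00894 for Psmc1, -0.20 for Psmc2, -0.0363 for Psmc4, -0.35 for Psmc5, -0.31 for Psmd11, -0.36 for Psmd14, -0.30 for Psmd5 and -0.13 for Psmf1. A fit of only the 2 groups compared gave 11 members lower with metformin than in control EAE, and 1 lower than in healthy libraries. Of all genes it called 1292 higher with metformin than in control EAE. Control EAE replicate 10 and metformin EAE replicate 22 were also both left out, a setting chosen after seeing the data. There 10 members were lower with metformin than in control EAE, and 22 were higher than in healthy libraries. Of all genes 4361 were lower with metformin than in healthy libraries in that setting. Across all settings other than single omissions, 616 to 2301 of all genes were lower with metformin than in control EAE. Likewise 1927 to 4556 were higher with metformin than in healthy libraries. The cause of these shifts was not tested. Without healthy replicates 3 and 4, also chosen after seeing the data, the counts were 28 higher and 1 lower in EAE, 16 lower, and 8 higher. The ratio tests with 5 in place of 0.5 added to each count kept all calls. The ratios of Psmb8 to Psmb5 and of Psmb9 to Psmb6 were not run, since both immunoproteasome genes are at 0. Depth was 46174795 to 58253086 counts per library, with 6 libraries per group.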
